A study of Mus musculus with 6 samples.

Results

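The genes described here are those of the ISG15 conjugation pathway, Isg15, Uba7, Ube2l6, Herc6 and Usp18, together with Rnf213. They were taken by symbol from the deposited table of read counts, which held all 6 genes among 23491 symbols, and all 6 were among the 14727 genes tested. The libraries came from microglia, the resident macrophages of the brain, enriched from the cerebellum of mice by bead selection for CD11b, which other myeloid cells display too. Every animal carried the genotype label Fmr1 knock out, a model of fragile X syndrome. The controls carried this label as well, and no wild-type group was analysed here. The treated group, 3 libraries, had received poly(I:C), a synthetic double-stranded RNA that mimics viral RNA, by intraperitoneal injection, and the control group, 3 libraries, is labelled saline, with the word sham in the titles. The sources used here give no dose, time after injection, age, sex or strain, and do not say that replicates came from separate animals. The p-values therefore measure only the spread between these samples. In such bulk libraries, fewer cells of a type and less RNA per cell cannot be told apart.

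ISG15 is a ubiquitin-like protein that interferon induces and that cells attach to other proteins, much as they attach ubiquitin. The enzymes act in sequence: UBA7 activates ISG15, UBE2L6 carries it, and HERC6, the main ISG15 ligase of the mouse, joins it to the target. USP18 removes ISG15 again and, apart from that activity, binds the type I interferon receptor and dampens its signal, and in the brain it is known for holding microglia quiescent. RNF213 is a giant ATPase and ubiquitin ligase that binds ISG15-modified proteins and acts against intracellular pathogens, and its human gene is known for moyamoya disease.

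Start regions are shown because 5 of the genes rose together with poly(I:C) while the windows differ in the motifs they hold. RefSeq windows of 300 bases, from 250 before to 50 after the gene start on build GRCm38.p6, were found for 5 of the 6 genes, Isg15, Uba7, Ube2l6, Herc6 and Rnf213, but not for Usp18. They were searched on both strands for GAAA, any 2 bases and GAAA again, the core of the interferon-stimulated response element, and for TTC, any 3 bases and GAA, the gamma-activated sequence. The Isg15 window held the first motif 3 times on its own strand, as overlapping copies between 78 and 57 bases before the start, 22 bases in all. The Uba7, Ube2l6, Herc6 and Rnf213 windows held neither motif. Of all 32851 windows, 3.44% held the first motif and 8.30% the second, and 5 windows held 3 or more copies of the first. Among genes called higher with poly(I:C), 38 of the 103 with a window held the first motif (36.9%), against 4.02% of the tested genes with a window. The second motif was in 16.5% and 8.27% of the same sets. The Isg15 window, at chr4:156200769-156201068 on the minus strand, is shown for its run of copies, with the matched bases in capitals. The Uba7 window, at chr9:107975317-107975616 on the plus strand, belongs to the gene with the smallest fold change of the 6. The Rnf213 window, at chr11:119389849-119390148 on the plus strand, belongs to the gene with the smallest p.
Isg15: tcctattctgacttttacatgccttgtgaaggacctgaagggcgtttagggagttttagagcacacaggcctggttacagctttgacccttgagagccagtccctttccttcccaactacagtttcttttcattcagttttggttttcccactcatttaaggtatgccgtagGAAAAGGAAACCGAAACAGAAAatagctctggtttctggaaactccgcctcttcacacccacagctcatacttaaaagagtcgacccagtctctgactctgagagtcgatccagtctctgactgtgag
Uba7: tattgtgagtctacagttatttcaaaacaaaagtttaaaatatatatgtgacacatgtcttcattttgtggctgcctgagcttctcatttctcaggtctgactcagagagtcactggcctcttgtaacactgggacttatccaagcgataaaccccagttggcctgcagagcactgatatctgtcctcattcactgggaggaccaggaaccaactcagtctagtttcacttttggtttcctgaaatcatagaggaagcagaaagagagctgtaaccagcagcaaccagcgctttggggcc
Rnf213: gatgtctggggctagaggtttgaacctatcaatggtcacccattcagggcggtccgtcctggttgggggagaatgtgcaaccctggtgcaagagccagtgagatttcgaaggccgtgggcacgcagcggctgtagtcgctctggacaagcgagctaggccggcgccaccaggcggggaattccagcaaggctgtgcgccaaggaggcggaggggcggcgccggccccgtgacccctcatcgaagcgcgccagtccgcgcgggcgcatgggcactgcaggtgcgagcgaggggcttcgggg
The Rnf213 window was the richest in G and C of the 5, at 67.0%, against 46.3% for Isg15, 44.7% for Uba7 and a median of 52.7% over all windows. GENCODE M21, on the same build, places the start of Rnf213 3150 bases downstream of the RefSeq start used for this window, so the choice of start decides which bases are read there. The same difference was −62 bases for Uba7, which is upstream, and 8 bases for Herc6, downstream. A match is a description of letters, and a missing match says only that these letters are not in the window.

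Library totals were between 33710545 and 34899835 counts. At these totals 3 counts correspond to between 0.0860 and 0.0890 CPM, which are counts scaled to a common library size with edgeR's TMM correction for composition. Fmr1, the gene named in the genotype, was read in every library at 39.0 ± 1.41 CPM for saline and 53.7 ± 9.42 CPM after poly(I:C) (mean ± SD, n = 3 each), a difference that missed the threshold in edgeR (adjusted p = 0.167), and with no wild-type library this is no check of the genotype. Of 11 microglial markers 10 had a row, and these summed to between 36948 and 43130 CPM in saline and between 29152 and 40523 CPM after poly(I:C), and none was at 0 throughout. Markers of other cells were read too, while the 8 neuronal markers with a row summed to at most 2.84 CPM. The 11 neutrophil markers, all detected, summed to 20539 CPM in saline replicate 1, 2448 and 2369 CPM in saline replicates 2 and 3, and between 481 and 2227 CPM after poly(I:C). The 9 choroid plexus markers, all detected, summed to between 3983 and 8522 CPM in saline and to 19408, 7657 and 9314 CPM after poly(I:C) replicates 1, 2 and 3. Saline replicate 1 and poly(I:C) replicate 1 therefore stood apart from their groups. The groups also differed from each other. The neutrophil sum was lower in every treated library than in any saline library. So were the sums of dendritic cell markers (at most 18.8 against at least 22.4 CPM) and red blood cell markers (at most 38.3 against at least 45.6 CPM). The other marker sums overlapped between groups. The part of cell makeup in the fold changes was not tested.

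With poly(I:C), Isg15, Usp18, Rnf213, Herc6 and Uba7 rose, between 1.88-fold for Uba7 and 11.3-fold for Usp18. These 5 of 6 genes passed edgeR's quasi-likelihood test at a Benjamini-Hochberg adjusted p under 0.05 over all tested genes, against 0.883% of tested genes called higher, 0.0747% called lower and 0.957% called in all. Ube2l6 stood 2.04-fold higher and missed the threshold (adjusted p = 0.226). For all 6 genes the lowest poly(I:C) library was above the highest saline library, a separation in this direction seen in 14.0% of tested genes, with 14.3% separated the other way. The median log2 fold change of the 6 was 2.17, against 0.01 over all tested genes. The count of 5 depended on single libraries: it was 4 without saline replicate 2, 3 without saline replicate 3 and 2 without poly(I:C) replicate 3, and 5 without each of the others. Without saline replicate 1 the 5 were not the same genes, as Ube2l6 passed in edgeR (adjusted p = 0.00181) and Uba7 did not (adjusted p = 0.0810). With both first replicates left out all 6 were called.

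**Figure D1:**
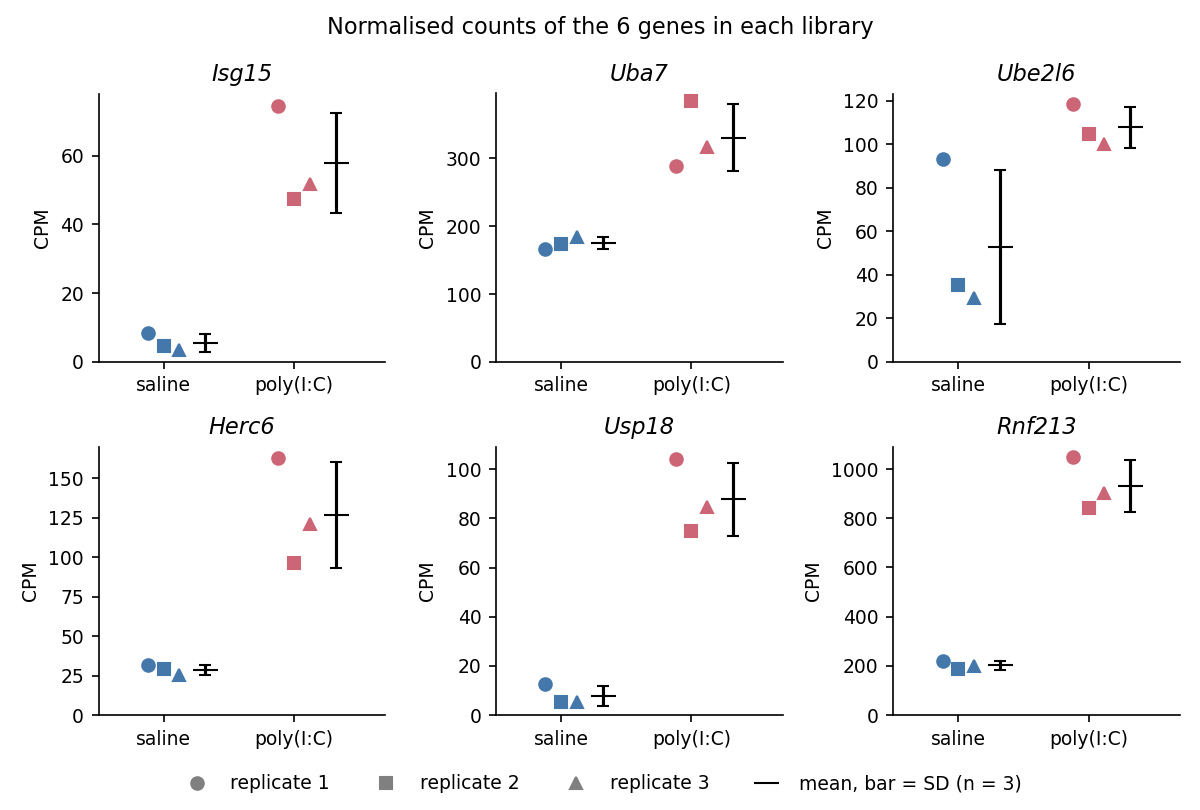
CPM (linear axis from 0) of each gene in each library, saline in blue and poly(I:C) in red, with the marker shape giving the replicate number and the black bar the mean ± SD (n = 3). No gene overlaps between groups, and saline replicate 1 of Ube2l6, at 93.4 CPM, comes closest to the poly(I:C) libraries.

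Isg15, the modifier itself, had 274, 159 and 116 counts in saline replicates 1, 2 and 3, or 8.33, 4.59 and 3.42 CPM. In poly(I:C) it had 2623, 1608 and 1798 counts, or 74.5, 47.5 and 51.7 CPM. The lowest treated library was 5.70-fold above the highest saline library, and the first replicate was the highest of each group. The mean went from 5.45 ± 2.57 to 57.9 ± 14.5 CPM, a 10.6-fold rise (log2 3.41, SE 0.36, adjusted p = 0.00885 in edgeR). Without poly(I:C) replicate 3 the adjusted p was 0.0501, within a range over all alternatives from 2.21e-22 to 0.0501, at a log2 fold change of 3.48. GENCODE M21 lists a copy, AC151275.1, that matches an Isg15 transcript at 95.2% over 482 bases, so reads may be shared with it or lost.

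Uba7, the activating enzyme at the head of the cascade, was the most strongly expressed conjugation gene before treatment. Its saline libraries stood at 167, 174 and 184 CPM and its poly(I:C) libraries at 288, 385 and 317 CPM. Unlike the other 5 genes, Uba7 had its lowest value of each group in the first replicate. The mean rose 1.88-fold, from 175 ± 8.78 to 330 ± 49.4 CPM (log2 0.91, SE 0.12, adjusted p = 0.0221 in edgeR). The call was lost without saline replicate 1, 2 or 3 or without poly(I:C) replicate 3, at adjusted p of 0.0810, 0.123, 0.130 and 0.127, and over all alternatives the adjusted p ran from 1.17e-07 to 0.130. Its log2 fold change lay between 0.79 and 1.03 in every alternative. Exons of the overlapping same-strand gene Gm20661, which is not analysed here, match 208 bases of a Uba7 transcript.

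Ube2l6, the carrier enzyme, was the only one of the 6 that missed the threshold with all libraries. Saline replicate 1 had 3071 counts, or 93.4 CPM, while saline replicates 2 and 3 had 1223 and 996 counts, or 35.3 and 29.4 CPM. The poly(I:C) libraries were close to each other, at 118, 105 and 100 CPM, and the lowest of them was 1.07-fold above saline replicate 1. The means were 52.7 ± 35.4 and 108 ± 9.43 CPM, a log2 difference of 1.03 (SE 0.42, adjusted p = 0.226 in edgeR). Without saline replicate 1 the difference was 3.31-fold and passed (log2 1.73, adjusted p = 0.00181). The adjusted p without any other single library was between 0.239 and 0.450, and over all alternatives it ran from 4.06e-04 to 0.450. Stretches of an Ube2l6 transcript resemble other genes, such as Ift46 at 96.5% over 260 bases, so some reads may be shared. It also passed in limma-voom with sample quality weights (log2 1.47, adjusted p = 0.0117). Saline replicate 1 held the neutrophil marker sum of 20539 CPM given above, and its monocyte marker sum, over 6 detected markers, was 2183 CPM, while saline replicates 2 and 3 had 356 and 388 CPM and the treated libraries between 227 and 554 CPM. The part of these cells in the Ube2l6 value was not tested, and the difference was larger without that library.

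Herc6, the ligase that hands ISG15 to its targets, was even among the saline libraries, at 31.8, 28.9 and 25.5 CPM. With poly(I:C) it stood at 163, 96.1 and 121 CPM, so the treated libraries spread more widely and all lay at least 3.02-fold above the highest saline library. The mean rose 4.40-fold, from 28.8 ± 3.16 to 127 ± 33.8 CPM (log2 2.14, SE 0.20, adjusted p = 0.00541 in edgeR). The call held in all 15 alternatives. In GENCODE M21 the exons of the overlapping same-strand gene Gm45193 match up to 688 bases of a Herc6 transcript, and reads of the 2 genes cannot be told apart there.

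Usp18, the protease that removes ISG15, had the largest fold change of the 6. It had 415, 185 and 181 counts in saline, or 12.6, 5.34 and 5.34 CPM, and 3663, 2537 and 2936 counts in poly(I:C), or 104, 75.0 and 84.4 CPM. Here too saline replicate 1 was well above the other saline libraries, yet the lowest treated library was 5.94-fold above it. The mean rose 11.3-fold, from 7.77 ± 4.21 to 87.8 ± 14.8 CPM (log2 3.50, SE 0.38, adjusted p = 0.00920 in edgeR). With saline replicate 3 or, in turn, poly(I:C) replicate 3 left out, the adjusted p was 0.0524 and 0.0537, at log2 fold changes of 3.29 and 3.53, with a range over all alternatives from 5.28e-23 to 0.0537. The antisense gene Gm44148, which could share reads in a count without strand, had at most 6 counts in any library.

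Rnf213 had the highest counts of the 6 genes and the smallest p, the 11th smallest of all tested genes. Its saline libraries had 7299, 6479 and 6749 counts, or 222, 187 and 199 CPM, and its poly(I:C) libraries 36869, 28505 and 31449 counts, or 1047, 842 and 904 CPM. Both groups were tight, with SDs of 8.77% and 11.3% of their means. The mean rose 4.60-fold, from 203 ± 17.8 to 931 ± 105 CPM (log2 2.20, SE 0.12, adjusted p = 6.98e-04 in edgeR). The call held in all 15 alternatives, with a log2 fold change between 2.13 and 2.28. The mean level passed 93.5% of tested genes in saline and 99.4% in poly(I:C), and Rnf213 made up between 41.5% and 44.5% of the summed CPM of the 6 genes in saline and between 54.3% and 58.3% in poly(I:C). Its antisense neighbour A930037H05Rik had at most 24 counts in any library.

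**Figure D2:**
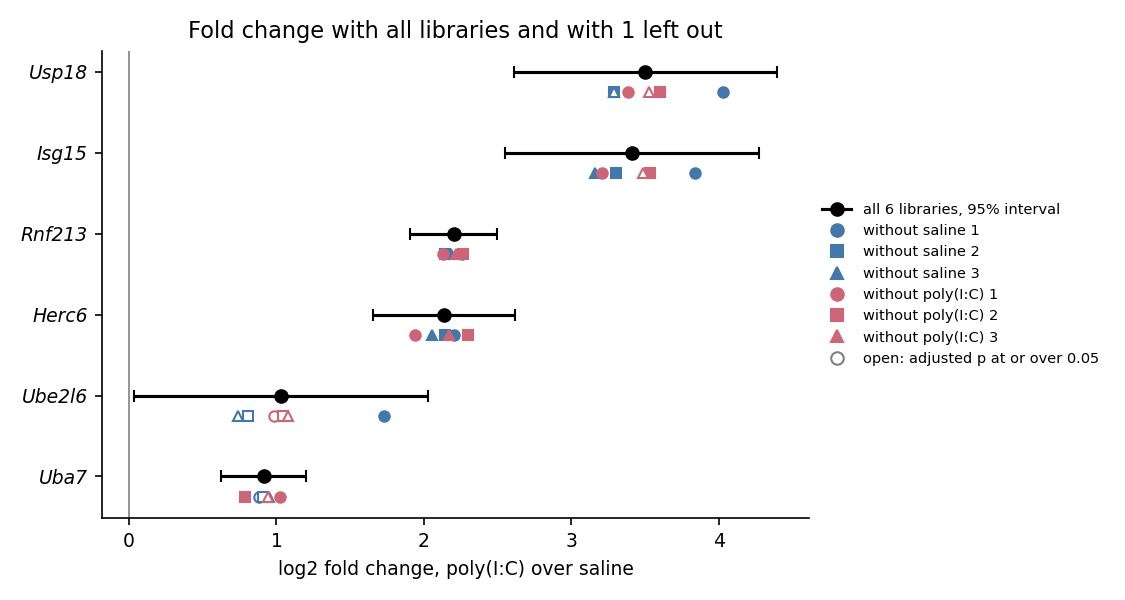
Log2 fold change of poly(I:C) over saline for each gene, with all 6 libraries (black, 95% interval) and with 1 library left out (blue for a saline library, red for a poly(I:C) library, marker shape for its number, open where the adjusted p is 0.05 or more). Every value is above 0, the intervals of Uba7 and Rnf213 (the latter from 1.91 to 2.49) are the narrowest, and Ube2l6 moves furthest, to 1.73 without saline replicate 1.

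Whether the genes differed in how far they moved was asked with the log2 ratio of each pair within a library, which does not depend on library scaling. In 12 of 15 pairs the treated ratios all lay to one side of the control ratios (exact permutation test, two-sided, p = 0.1, the smallest this design allows, adjusted p = 0.125), so none of the differences could pass. The change in Usp18 was 6.48-fold that in Uba7, and the change in Isg15 was 5.91-fold that in Uba7. The log2 ratio of Usp18 to Rnf213 went from −4.82 ± 0.60 to −3.41 ± 0.08 (SD, n = 3 each), a change 2.65-fold that in Rnf213. The remaining 3 pairs overlapped. Isg15 to Usp18, the modifier and its protease, had a log2 ratio of −0.48 ± 0.23 in saline and −0.62 ± 0.12 in poly(I:C), a difference of −0.13 (exact permutation p = 0.5). Herc6 to Rnf213 differed by −0.09 (exact permutation p = 0.7), with a turn of sign to 0.02 without poly(I:C) replicate 2, and Uba7 to Ube2l6 by −0.32 (exact permutation p = 0.7), with a turn of sign to 0.04 without saline replicate 3. With all libraries the order of fold change was thus Usp18 and Isg15, then Rnf213 and Herc6, then Ube2l6 and Uba7. Neighbours within each pair did not differ beyond their spread, which does not show that they moved alike. For Uba7 and Ube2l6 this rested on saline replicate 1. Their log2 ratios in saline replicates 2 and 3, 2.30 and 2.65, lay above all treated ratios, at most 1.87. Without saline replicate 1 the difference was −0.87, with log2 fold changes of 1.73 for Ube2l6 and 0.88 for Uba7.

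Levels of different genes were compared per length, as CPM divided by the length of the longest protein-coding transcript in GENCODE M21, from 756 bases for Isg15 to 16716 for Rnf213. In saline the order of mean level per kilobase was Uba7 at 54.8 ± 2.75, Ube2l6 at 33.8 ± 22.7, Rnf213 at 12.1 ± 1.06, Isg15 at 7.21 ± 3.40, Herc6 at 6.03 ± 0.66 and Usp18 at 4.38 ± 2.37 CPM per kilobase (SD, n = 3). The activating enzyme was thus the most abundant transcript before treatment and its modifier ranked the fourth. Saline values of Uba7 and Ube2l6 overlapped, with saline replicate 1 of Ube2l6 at 59.9 CPM per kilobase, and those of Isg15, Herc6 and Usp18 overlapped as well, whereas Rnf213 overlapped neither neighbour. In poly(I:C) the order was Uba7 at 103 ± 15.5, Isg15 at 76.6 ± 19.2, Ube2l6 at 69.0 ± 6.04, Rnf213 at 55.7 ± 6.29, Usp18 at 49.6 ± 8.38 and Herc6 at 26.6 ± 7.09 CPM per kilobase. Neighbours in that order overlapped except Ube2l6 and Rnf213, whose closest libraries were at 64.1 and 62.7 CPM per kilobase, and Usp18 and Herc6, at 42.3 and 34.2 CPM per kilobase. The transcript in use and the evenness of coverage along it were not measured, which bears most on the long Rnf213.

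**Figure D3:**
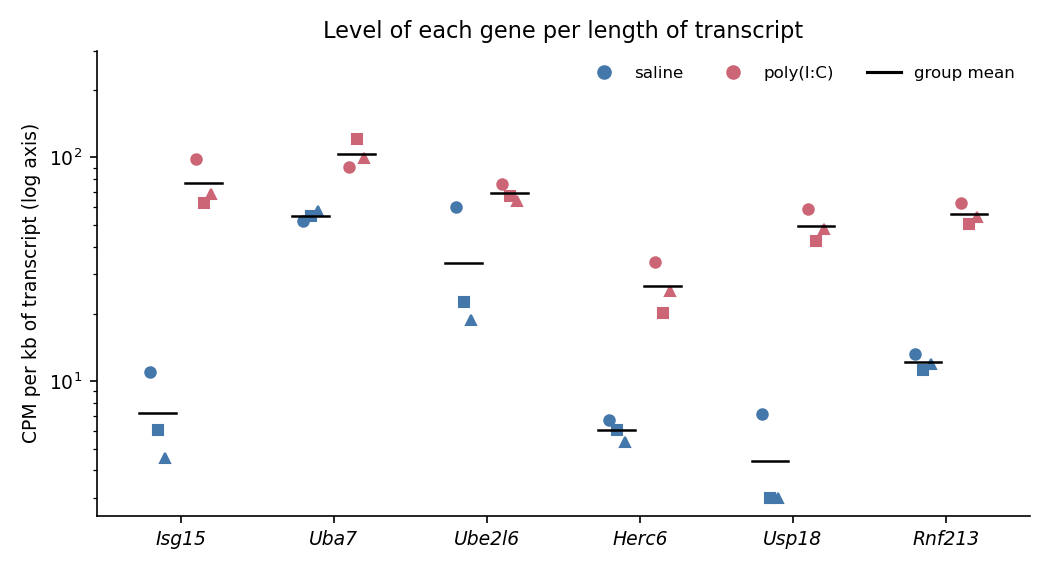
CPM per kilobase of transcript (log axis) for each gene and library, saline in blue and poly(I:C) in red, with the marker shape giving the replicate and the black line the group mean. In saline Uba7 stands highest at a mean of 54.8, and with poly(I:C) the means lie closer together on the log axis, between 26.6 and 103.

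Within a group the libraries did not deviate in the same way for all genes. In saline replicate 1, Ube2l6, Usp18 and Isg15 were 1.02, 0.82 and 0.71 above their saline means on the log2 CPM scale, while Herc6 and Rnf213 were 0.15 and 0.14 above and Uba7 was at −0.07. In poly(I:C) replicate 1, Herc6 and Isg15 were 0.40 and 0.39 above the treated mean, Usp18 0.26, Rnf213 0.18 and Ube2l6 0.14, with Uba7 at −0.18. Saline replicate 1 was the library with the high neutrophil and monocyte marker sums, and poly(I:C) replicate 1 the one with the high choroid plexus sum and the lowest microglial sum, 29152 CPM. The part of these cells in the deviations was not tested.

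**Figure D4:**
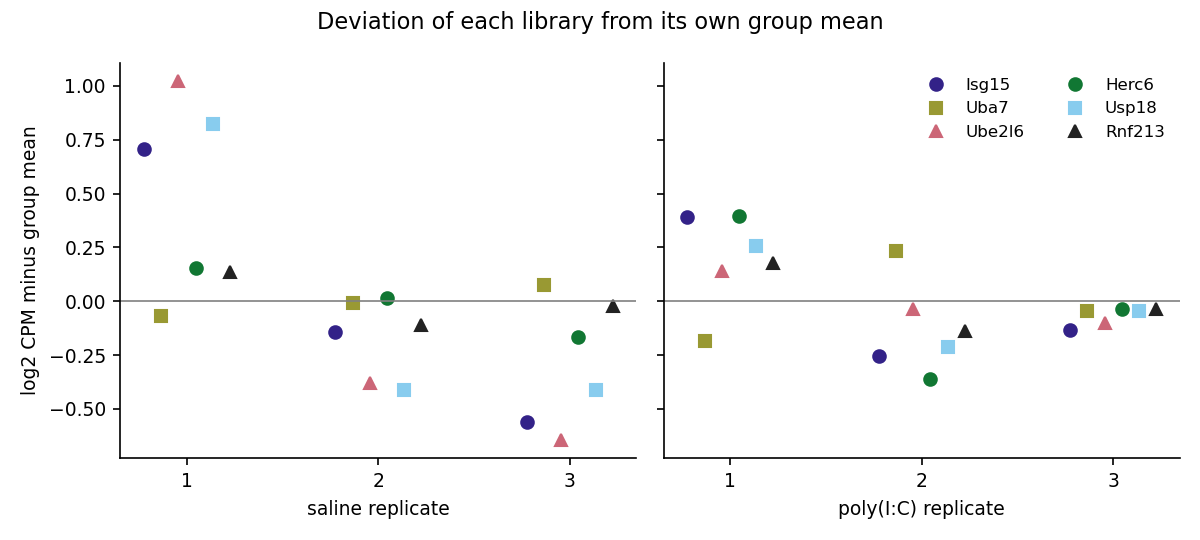
Log2 CPM of each gene minus its own group mean, for the 3 saline libraries (left) and the 3 poly(I:C) libraries (right). Ube2l6, Usp18 and Isg15 lie between 0.71 and 1.02 in saline replicate 1, whereas Uba7 lies just below 0 there.

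The genes most like each member over the 6 libraries were found among 10666 tested genes averaging 5 CPM or more, by the root mean square difference of centred log2 CPM, given as a description. For Rnf213 they included Trim30a and Eif2ak2, at distances of 0.09 and 0.09, and for Herc6 they were Tnfsf10, Trim30a and Eif2ak2, at 0.11, 0.11 and 0.14. Trim30a, an interferon-induced regulator of inflammatory signalling, stood at 101, 81.5 and 84.8 CPM in saline and 441, 314 and 385 CPM after poly(I:C). Isg15 lay closer to its protease Usp18, at 0.16, than to the genes outside the pathway, of which Slfn5, Ifit1 and Rtp4 were the nearest at 0.21, 0.23 and 0.25. Those nearest to Usp18 outside the pathway were Ifi44, Ifit3 and Zbp1, at 0.22, 0.24 and 0.25. Zbp1, a sensor of unusual nucleic acid, lost its call when saline replicate 3 or poly(I:C) replicate 3 was left out (adjusted p = 0.101 and 0.0622), and Tnfsf10, the death ligand TRAIL, without saline replicate 2 or 3 or poly(I:C) replicate 3 (adjusted p = 0.0531, 0.0781 and 0.0558).

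Uba7 and Ube2l6 had other neighbours. For Uba7 they were Fcgr1, the high-affinity IgG receptor gene, Parp10, an ADP-ribosyltransferase gene, and Shisa5, at 0.08, 0.12 and 0.12. Parp10 rose 1.84-fold and held its call without each library. Fcgr1 rose 1.77-fold but lost the call without saline replicate 1, 2 or 3 or poly(I:C) replicate 3 (adjusted p = 0.0718, 0.106, 0.120 and 0.127), and Shisa5 rose 1.77-fold but lost it without saline replicate 2 or 3 or poly(I:C) replicate 3 (adjusted p = 0.0639, 0.0781 and 0.0558). For Ube2l6 they were B430306N03Rik, Wdhd1 and Hells, at 0.22, 0.24 and 0.24. Wdhd1, a DNA replication factor, stood at 14.9, 5.60 and 5.28 CPM in saline and 18.3, 11.3 and 17.2 CPM after poly(I:C), and Hells, a chromatin remodeller of dividing cells, at 10.6, 3.61 and 3.57 CPM and then 16.4, 8.51 and 12.2 CPM. Both were thus highest among saline libraries in replicate 1, as Ube2l6 was, and neither was called with all libraries (adjusted p = 0.288 and 0.257), nor was B430306N03Rik (adjusted p = 0.464). Without saline replicate 1, B430306N03Rik and Wdhd1 passed, at adjusted p of 0.0107 and 0.0489, and with both first replicates left out all 3 passed, with Hells at 0.0208. These 3 genes were chosen for their likeness to Ube2l6 over the same 6 libraries. A high saline replicate 1 and calls gained without it are therefore no separate evidence. The same holds for the fold changes and calls of the neighbours of the other members, which were chosen in the same way.

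None of the other genes of these enzyme families passed the test with all libraries, where 0.957% of all tested genes were called. A count of 0 among 124 is near that share and does not set these families apart. Across the other ubiquitin-like modifiers, activating enzymes, carrier enzymes, HECT ligases and ubiquitin-specific proteases, 124 genes were tested and edgeR called 0, with 19 at an unadjusted p under 0.05, against 3136 of all 14727 tested genes. With both first replicates left out edgeR called 1 higher, Usp25, and 1 lower, against 355 and 214 of all 14763 genes tested there. DESeq2 called 1 higher and 4 lower, against 577 and 566 of all 14727 tested genes. For limma-voom with sample quality weights it was 4 higher and 16 lower, against 1268 and 1608 of all. The median log2 differences were −0.10, −0.05, −0.03, 0.0035 and −0.0036 in the order named, close to the 0.01 of all genes, and except for the modifiers their sign turned with the scaling. The lowest was Ube2c, a carrier of dividing cells, at −2.22 (adjusted p = 0.189), with 21.6, 4.65 and 3.71 CPM among saline libraries and 3.13, 1.21 and 2.07 CPM among treated ones. In each family the ISG15 pathway gene had a larger log2 fold change than every other tested gene. Members and lists were chosen with earlier results of these data known, so this order is a description only. The nearest to Isg15 among 18 modifiers was Ufm1, at 0.28. Among the 9 activating enzymes the nearest to Uba7 was Uba3, at 0.16, and among the 32 carriers the nearest to Ube2l6 was Ube2e2, at 0.66. Ube2l6 itself was not called, and its 95% interval, from 0.04 to 2.03, includes the value of Ube2e2. Hecw2 was nearest to Herc6 among 23 HECT ligases, at 1.22, from 0.42 ± 0.23 to 0.98 ± 0.68 CPM, and Usp25 was nearest to Usp18 among 42 proteases, at 0.60. None of these 5 was called in edgeR with all libraries, at adjusted p between 0.121 and 0.381, and Ube2c, Ufm1, Ube2e2 and Hecw2 were named after their values were seen.

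**Figure D5:**
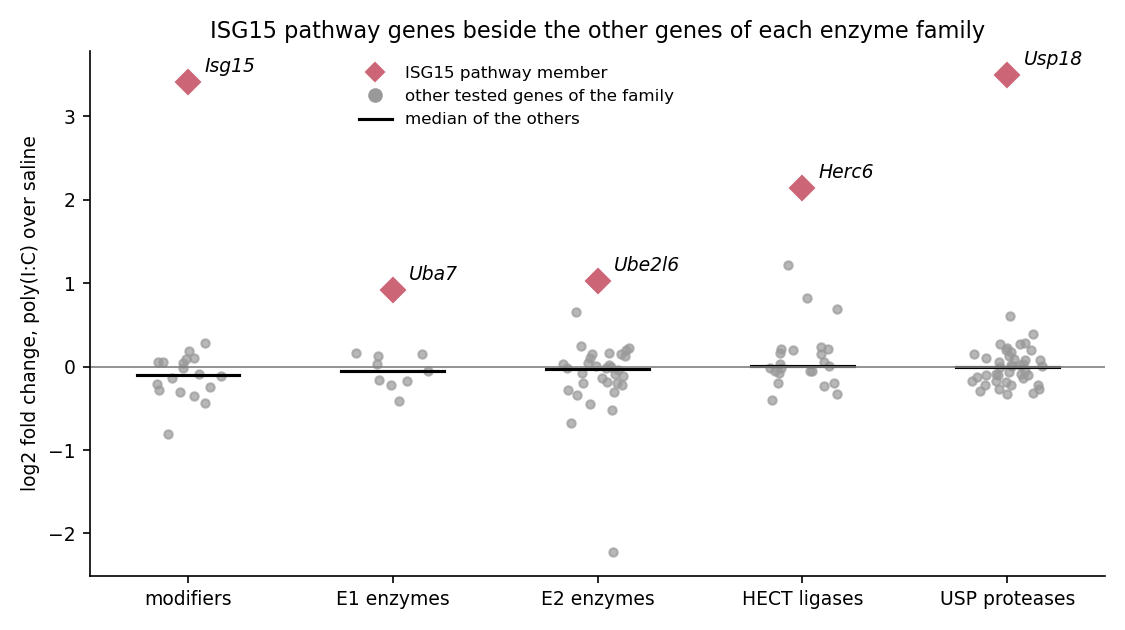
Log2 fold change of poly(I:C) over saline for the ISG15 pathway gene of each family (red diamond) and for the other tested genes of the family (grey points, spread sideways for legibility), with the median of the others as a black line. Each diamond lies above all grey points of its column, closest for Ube2l6 at 1.03, where the highest other carrier is at 0.66. Ube2l6 was not called, and the genes shown were chosen with earlier results of these data known.

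The closest relatives of the pathway genes were not called, as was the case for most tested genes, of which 0.957% were called. Ube2l3, a ubiquitin carrier closely related to Ube2l6, stood at 116 ± 6.57 and 129 ± 11.5 CPM (adjusted p = 0.353), and Uba1, the main ubiquitin activating enzyme, at 304 ± 21.3 and 269 ± 9.56 CPM (adjusted p = 0.271). Herc3 and Herc4, small HERC ligases like Herc6, had log2 differences of 0.15 and 0.23 (adjusted p = 0.486 and 0.332), and the ubiquitin gene Ubb one of −0.20 (adjusted p = 0.343). Among the genes with the smallest p in families without a call were Map1lc3b, an autophagy modifier, at a log2 difference of −0.44 (adjusted p = 0.119), Ube2h, a carrier enzyme, at −0.34 (adjusted p = 0.121), Ube3b, a HECT ligase, at −0.39 (adjusted p = 0.166), and Usp25. Usp25, a protease linked to antiviral signalling, stood at 92.0, 72.6 and 77.7 CPM in saline and 143, 106 and 120 CPM after poly(I:C), without overlap, at an adjusted p of 0.121 in a range over its alternatives from 0.00623 to 0.407, and it passed with both first replicates left out (adjusted p = 0.0177).

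Among 14 tested further partners of ISG15 or USP18, such as other ligases, proteases and receptors, 2 were higher and 0 lower. Over all tested genes 0.883% were higher and 0.0747% lower. The median log2 difference of the partners was −0.03, and its sign also turned with the scaling. Stat2, through which USP18 reaches the interferon receptor, went from 67.2, 66.4 and 67.2 to 258, 196 and 212 CPM, a 3.32-fold rise (adjusted p = 0.00108). Trim25, a ligase of ubiquitin and ISG15 in the RIG-I pathway, rose 2.09-fold, from 68.5 ± 12.4 to 143 ± 18.2 CPM (adjusted p = 0.0323). Its call was lost without saline replicate 2 or 3 or poly(I:C) replicate 1, 2 or 3 (adjusted p = 0.137, 0.185, 0.0816, 0.0520 and 0.171). The receptor subunit Ifnar2, to which USP18 binds, was at 243 ± 40.7 and 249 ± 10.9 CPM (log2 0.03, adjusted p = 0.895).

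Of 11 tested genes whose proteins are known to carry ISG15, 6 were higher and 1 lower, with a median log2 fold change of 1.71. Over all tested genes 0.883% were higher and 0.0747% lower, with a median of 0.01. The list was chosen with earlier results of these data known, so the count is no evidence about carrying ISG15. Those that rose included the sensors Ifih1 and Rigi, the kinase Eif2ak2, and Ifit1 and Ifit3, all of them interferon-induced genes themselves. These rose between 3.27-fold for Rigi and 15.1-fold for Ifit3. Ifih1 lost its call without saline replicate 2 or 3 or poly(I:C) replicate 3 (adjusted p = 0.0541, 0.0781 and 0.0611). Mapk3, the kinase ERK1, was 1.49-fold lower, at 189 ± 11.5 and 126 ± 4.86 CPM (adjusted p = 0.0266), and lost its call without any 1 library (adjusted p between 0.0510 and 0.213). Of the 6 tested genes linked to RNF213, Pnpla2, a triglyceride lipase that RNF213 is known to keep off lipid droplets, was lower by 1.53-fold, from 99.9 ± 5.31 to 65.4 ± 4.71 CPM (adjusted p = 0.0278), and 0 were higher in edgeR. Among the fits without 1 library, that call held only without poly(I:C) replicate 2, with an adjusted p between 0.0768 and 0.215 without each other library. It also held in edgeR with both first replicates left out (adjusted p = 0.0238).

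Of 13 tested interferon receptors and factors that drive such genes, 4 were higher, among them Stat2, Irf9 and Irf7, and 0 lower. Over all tested genes 0.883% were higher and 0.0747% lower. The median log2 difference of the 13 was 0.03. Irf9 gives the complex that binds the interferon-stimulated response element its DNA contact, and Irf7 amplifies interferon production. Irf9 stood at 95.0, 81.5 and 89.6 CPM in saline and 196, 199 and 196 CPM after poly(I:C), a 2.22-fold rise (adjusted p = 0.00145). Irf7 rose 15.7-fold, from 21.2 ± 6.51 to 331 ± 64.0 CPM (adjusted p = 0.00108). The receptor gene Ifnar1 was at 150 ± 4.31 and 150 ± 6.34 CPM (log2 0.00, adjusted p = 0.989), and Ifnb1, which encodes interferon beta, was at 0.57 ± 0.18 and 0.70 ± 0.30 CPM (adjusted p = 0.747).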

How the data were processed

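RNA-seq read counts from 6 libraries of bead-enriched cerebellar microglia, 3 saline and 3 poly(I:C), were used. The authors deposited 1 table of unnormalised read counts, with gene symbols in rows and libraries in columns. The submitters' processing notes list fastp, HISAT2, HTSeq and build GRCm39. Settings, annotation and strand were not given in the sources used here. Cells were enriched with CD11b beads, a SMARTer kit amplified the cDNA and Nextera XT made the libraries, per the labels' protocols, so PCR reads and not molecules are counted, and floors cover counting error only.

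The test was run in edgeR 4.0.16 under R 4.3.3 (filterByExpr, TMM, glmQLFit and glmQLFTest, no covariate), with Benjamini-Hochberg adjustment over 14727 genes. The standard error is the absolute log2 fold change over the square root of F. Members, lists and tests were chosen with earlier results of these data known. Named genes are the 6 members, called genes of each list or up to 3 of smallest p, the 3 genes nearest to each member, and close relatives; 1 such gene is not reported here. The alternatives were 3 other scalings (total-count, upper-quartile, RLE), 2 filters, DESeq2 1.42.0, limma-voom (limma 3.58.1) with quality weights, a replicate block, and leaving out libraries. Pair ratios used log2 CPM with a prior count of 2. Sequences, from RefSeq and GENCODE M21, are of GRCm38, another build than the counts, and were compared with BLAST 2.17.0. The fit was tested on simulated data. Libraries within a group were distinct beyond sampling noise (chi-square of 17.0 or more per gene).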

Additional observations from a re-analysis of the deposited data

How the results depend on the processing

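Direction was kept by all 6 genes in all 15 alternatives, and the calls of Herc6 and Rnf213 in all 15. Without 1 library the log2 fold change ranged from 3.16 to 3.84 for Isg15, 0.79 to 1.03 for Uba7, 0.74 to 1.73 for Ube2l6, 1.94 to 2.30 for Herc6, 3.29 to 4.03 for Usp18 and 2.13 to 2.26 for Rnf213. Ube2l6 passed with limma-voom (1.47) and with both first replicates left out (1.69). Over all genes, against 130 higher and 11 lower, DESeq2 called 577 and 566, limma-voom with quality weights 1268 and 1608, and the fit without both first replicates 355 and 214, which brings the higher share from 92.2% to 50.5%, 44.1% and 62.4%. With no filter 18 were lower. Without 1 library there were between 51 and 167 higher and between 0 and 20 lower. The lower count of 0 came without saline replicate 3 and without poly(I:C) replicate 3, where 1913 and 1831 genes had an unadjusted p under 0.05. The log2 ratio difference turned sign for Uba7 to Ube2l6 without saline replicate 3 (0.039; −0.87 without saline replicate 1) and for Herc6 to Rnf213 without poly(I:C) replicate 2 (0.023; −0.20 without poly(I:C) replicate 1). The cause was not tested. With a replicate block 171 were higher and 89 lower, and the same 5 members and 1 of the 124 other family genes were called; same-numbered libraries deviated together at r = 0.11, −0.12 and 0.19, and not every library correlated best with its own number, so the numbers were not taken as pairs.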
